A study of Saccharomyces cerevisiae with 10 samples.

Results

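The genes described here are 9 genes of the mating pheromone response of budding yeast, Saccharomyces cerevisiae, taken by their feature names out of the 6663 features of an RNA sequencing study. They are FUS1 (YCL027W), FUS3 (YBL016W), FIG1 (YBR040W), FAR1 (YJL157C), STE12 (YHR084W), AGA1 (YNR044W), KAR4 (YCL055W), SST2 (YLR452C) and GPA1 (YHR005C). All 9 were found in the deposited table, and all 9 averaged 1 FPKM or more across the strains, the level above which features were compared. FPKM, fragments counted per kilobase of transcript and scaled to library size, is a level already divided by transcript length. The strains were set1∆, which lacks the methyltransferase gene SET1, set5∆, which lacks SET5, SET5 Y402A, in which the Set5 protein carries a substitution, set1∆ set5∆, which lacks both genes, and the wild type (WT). Set1 methylates histone H3 on lysine 4 and Set5 methylates histone H4. All strains were of the BY4741 background, a haploid laboratory strain of mating type a, and were grown in the rich medium YPD at 30 °C and collected in mid-log phase. No pheromone treatment is named in the labels, so the levels are those of vegetative cultures. The labels give 2 biological replicates per strain, 10 libraries in all, but the table holds 1 value per gene and strain. No value below therefore has a replicate error, no test or p-value is given, and the sequencing depth behind the values is unknown.

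Haploid yeast cells of either mating type find a partner by secreted peptide pheromones. The pheromone binds a receptor at the cell surface and frees the G protein beta and gamma subunits from the alpha subunit Gpa1, and a scaffolded chain of kinases then activates the MAP kinase Fus3. Fus3 relieves the transcription factor Ste12 from its inhibitors, and Ste12 binds pheromone response elements in the promoters of genes for cell cycle arrest, agglutination and cell fusion. Several of the genes are also transcribed at a basal level without pheromone.

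The pheromone response element core TGAAACA was looked for because it is the sequence that Ste12 is known to bind. The stretches that hold it show where the regulator could meet some of the genes whose levels are described below. The sequences are from RefSeq, assembly R64 of the reference strain S288C, not from the strains studied, and the sources used here do not name the genome build behind the deposited table. In the window from 250 bases before to 50 bases after the first base of the start codon, TGAAACA or its reverse complement was present in 5 of the 9 members, FUS1, FUS3, AGA1, KAR4 and SST2, and it was present in 7.50% of the 6002 nuclear protein-coding genes. FUS1 and KAR4 held 2 copies each, and 0.417% of all genes held at least 2. FIG1, FAR1, STE12 and GPA1 held no copy in that window. Within 500 bases before the start codon, STE12 itself held 3 copies and FUS3 held 2. In that window 6 of the 9 members held at least 1 copy, beside 12.0% of all genes. At least 2 copies were held by 4 of the 9, beside 0.933% of all genes. The stretches are given 5′ to 3′ on the strand of the gene, with the core in capitals and 15 bases on either side. In KAR4 the capitals are the reverse complement of the core. For FIG1 the shorter form TGAAAC and its reverse complement are in capitals, a form present in 7 of the 9 members and in 19.9% of all genes.
FUS1, chrIII:71601-71664, plus strand: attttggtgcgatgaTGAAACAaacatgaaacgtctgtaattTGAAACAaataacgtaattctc
FUS3, chrII:192280-192316, plus strand: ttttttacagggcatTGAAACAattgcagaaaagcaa
AGA1, chrXIV:703482-703518, plus strand: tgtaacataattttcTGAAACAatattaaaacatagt
KAR4, chrIII:27769-27850, plus strand: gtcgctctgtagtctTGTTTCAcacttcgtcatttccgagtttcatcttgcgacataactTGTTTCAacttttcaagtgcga
SST2, chrXII:1041590-1041626, minus strand: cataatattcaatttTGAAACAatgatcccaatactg
STE12, chrVIII:273685-273802, plus strand: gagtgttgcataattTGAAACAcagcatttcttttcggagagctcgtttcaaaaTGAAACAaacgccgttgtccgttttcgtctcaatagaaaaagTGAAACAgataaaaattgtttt
FIG1, chrII:316736-316815, plus strand: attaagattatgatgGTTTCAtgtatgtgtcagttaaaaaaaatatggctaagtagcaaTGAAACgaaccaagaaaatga
The cores of FUS1 began 187 and 160 bases before the start codon, those of KAR4 145 and 100 bases before it, and those of FUS3, AGA1 and SST2 156, 202 and 245 bases before it. A match of letters is not evidence of binding, and the absence of one says only that these letters are not in the window.

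The strain labels held at the targeted genes. SET1 stood at 0.0328 FPKM in set1∆ and 0.0324 FPKM in set1∆ set5∆, against 24.3 FPKM in WT, and SET5 at 0.0545 FPKM in set5∆ and 0.0167 FPKM in set1∆ set5∆, against 34.6 FPKM in WT. The a-specific genes, which mark the labelled mating type, were present in every strain, with the alpha-factor receptor gene STE2 between 620.4 and 750.4 FPKM. The scarcest of them, ASG7, stood between 20.7 and 26.4 FPKM. None of the 9 members overlaps another gene in the RefSeq annotation, and at least 99.9% of the 50-base sequences in each occur once in the genome. The kit does not mark strand, so reads of an unannotated antisense RNA could not be told from those of the gene.

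Among the 9 genes, the scarce fusion gene FIG1 stood higher without SET1, the desensitizer gene SST2 and the agglutinin gene AGA1 stood lower without SET1, and in the other 6 genes the highest strain was 1.20 to 1.36 times the lowest. The ratios of the SET5 deletion or substitution to the strain with intact SET5 were small, and most of them were negative. Since these are bulk RNA samples, fewer cells transcribing a gene and less RNA per cell cannot be told apart.

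**Figure D1:**
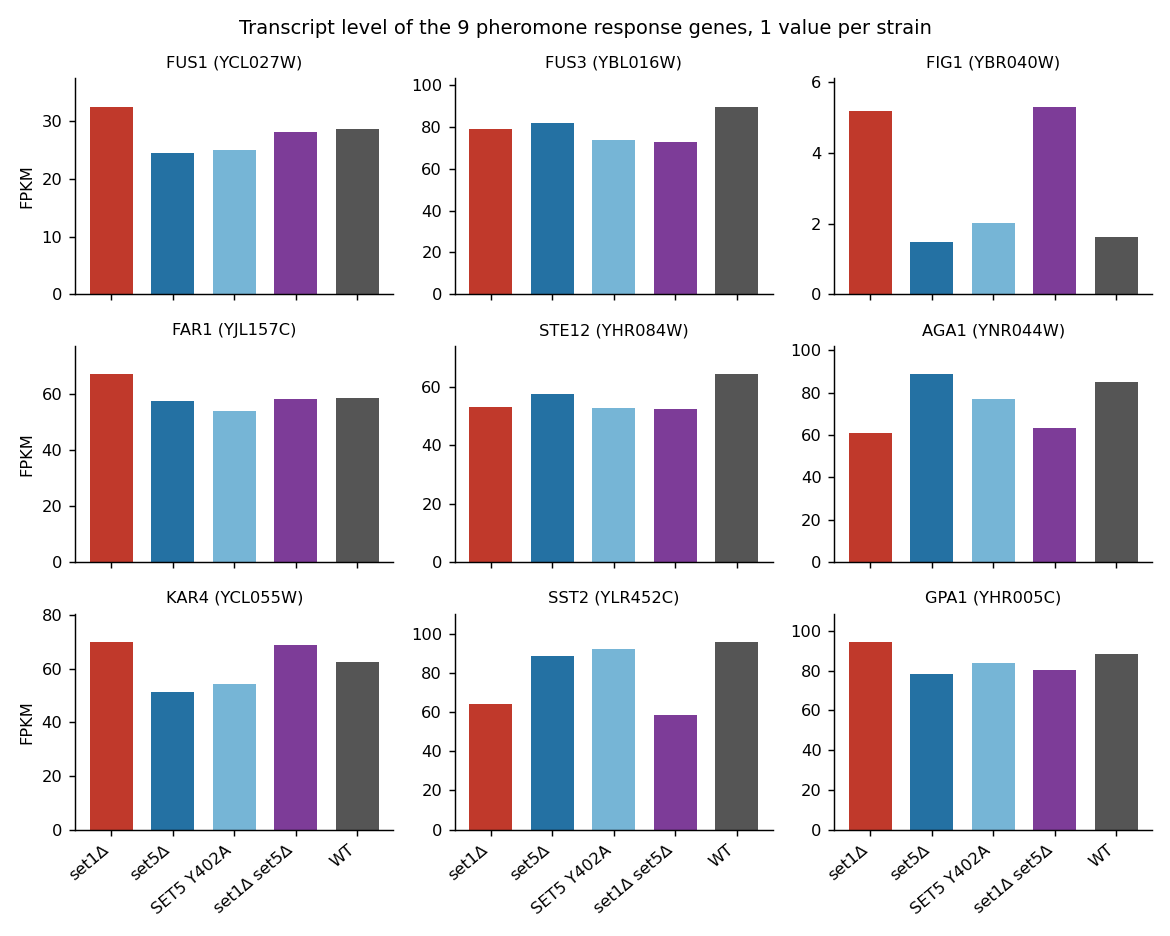
FPKM of each of the 9 genes (1 panel per gene, each with its own vertical axis from 0) in the 5 strains; each bar is the single deposited value of a strain, so there are no error bars. FIG1 is high in set1∆ and set1∆ set5∆ (5.19 and 5.31 FPKM), while SST2 and AGA1 are low in the same strains.

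At the head of the pathway, GPA1, the G protein alpha subunit that holds the signal off, was among the most abundant members. It stood at 94.5 FPKM in set1∆, 78.5 FPKM in set5∆, 83.8 FPKM in SET5 Y402A and 80.4 FPKM in set1∆ set5∆, against 88.3 FPKM in WT. The highest strain was thus 1.20 times the lowest, the smallest such range of the 9 genes, and no strain stood apart. SST2 encodes the GTPase-activating protein that returns Gpa1 to its inactive form and so desensitizes the cell to pheromone. It stood at 64.1 FPKM in set1∆ and 58.8 FPKM in set1∆ set5∆, against 88.7 FPKM in set5∆, 92.1 FPKM in SET5 Y402A and 95.9 FPKM in WT. Both strains without SET1 lay below all 3 strains that carry it, and the highest strain was 1.63 times the lowest.

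FUS3, the MAP kinase of the response, stood at 79.1 FPKM in set1∆, 81.9 FPKM in set5∆, 73.8 FPKM in SET5 Y402A and 72.8 FPKM in set1∆ set5∆, against 89.8 FPKM in WT. All 4 mutants lay below WT, and strains with and without SET1 overlapped. STE12, the transcription factor that Fus3 activates, stood at 53.1 FPKM in set1∆, 57.6 FPKM in set5∆, 52.9 FPKM in SET5 Y402A and 52.4 FPKM in set1∆ set5∆, against 64.3 FPKM in WT. It too was below WT in all 4 mutants, and set1∆, SET5 Y402A and set1∆ set5∆ lay close together. FUS3 and STE12 were each other's nearest members in pattern, with a root mean square difference of 0.04 between their log2(FPKM + 1) values after each was centred on its mean over the 5 strains. Both ranged only 1.23-fold over the strains, and how many of all features lie as close was not counted.

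FAR1 encodes the inhibitor that arrests the cell cycle in response to pheromone and also guides polarized growth. It stood at 66.9 FPKM in set1∆, 57.2 FPKM in set5∆, 53.6 FPKM in SET5 Y402A and 58.1 FPKM in set1∆ set5∆, against 58.3 FPKM in WT. The value in set1∆ was the highest, and set1∆ set5∆ and WT were nearly equal. KAR4, a transcription factor of nuclear fusion that acts with Ste12, stood at 70.0 FPKM in set1∆ and 68.9 FPKM in set1∆ set5∆, against 51.4 FPKM in set5∆, 54.2 FPKM in SET5 Y402A and 62.4 FPKM in WT. Both strains without SET1 lay above the other 3, and both single SET5 mutants lay below WT. KAR4 is known to have a constitutive and a pheromone-induced transcript with different starts, and the table gives a single value for the gene.

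FUS1, a membrane protein of the fusion site and the classic reporter of the pathway, stood at 32.5 FPKM in set1∆, 24.5 FPKM in set5∆, 25.0 FPKM in SET5 Y402A and 28.1 FPKM in set1∆ set5∆, against 28.6 FPKM in WT. It was highest in set1∆, lowest in the 2 single SET5 mutants, and close to WT in the double deletion. AGA1, the anchor of the a-agglutinin with which mating cells adhere, stood at 61.2 FPKM in set1∆ and 63.1 FPKM in set1∆ set5∆, against 88.7 FPKM in set5∆, 76.9 FPKM in SET5 Y402A and 85.3 FPKM in WT. As with SST2, both strains without SET1 lay below the other 3. FIG1, a membrane protein needed for calcium influx and fusion during mating, was by far the scarcest member, with 5.19 FPKM in set1∆ and 5.31 FPKM in set1∆ set5∆, against 1.48 FPKM in set5∆, 2.03 FPKM in SET5 Y402A and 1.62 FPKM in WT. The groups with and without SET1 did not overlap, and the highest strain was 3.58 times the lowest. No replicate error is available for any gene, so neighbours in these orders that lie close together cannot be ranked.

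For the comparisons between strains, a ratio is log2((FPKM + 1) / (FPKM of the compared strain + 1)), and 1.5-fold on that scale (0.58 in log2) was taken as the size at which a feature is counted as called. The question of what the absence of SET1 goes with can be asked in cells with SET5, set1∆ against WT, and in cells without it, set1∆ set5∆ against set5∆, and these ratios share no strain value. FIG1 had a log2 ratio of 1.24 in set1∆ against WT and 1.35 in set1∆ set5∆ against set5∆. On plain FPKM these ratios were 3.20 and 3.58. SST2 had log2 ratios of -0.58 and -0.58, AGA1 -0.47 and -0.49. KAR4 stood at 0.16 and 0.42, FUS1 at 0.18 and 0.19, FUS3 at -0.18 and -0.17 and STE12 at -0.27 and -0.13. FAR1 (0.20 and 0.02) and GPA1 (0.10 and 0.03) had the smallest averages of the pair in size. All 9 genes had the same sign in both backgrounds, though FAR1 and GPA1 lay near 0 in the second. An equal sign was common among all features. It holds for the 31.3% of them that were higher in both strains without SET1 than in all 3 strains with it. It holds also for the 31.4% that were lower in that way.

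In set1∆ against WT, 1 of 9 members, FIG1, was called higher and 0 were called lower, where 6.97% of the 6541 features compared were called higher and 2.26% lower. In set1∆ set5∆ against set5∆ the same counts were 1, again FIG1, and 0, beside 8.00% and 4.05% of all features. These shares are near those that 9 genes would hold at the background, so the counts say nothing particular about the pheromone genes as a group. SST2 lay just short of the 1.5-fold limit in both comparisons, and AGA1 next. The median log2 ratio over the 9 genes was 0.10 in set1∆ and 0.02 in set1∆ set5∆ against set5∆, beside medians of -0.00 and 0.00 over all features. In set1∆ against WT 90% of all features lay between -0.44 and 0.70, so FIG1 lay above and SST2 and AGA1 below that range, and the other 6 genes lay within it. In set1∆ set5∆ against set5∆ the range was -0.55 to 0.76, with FIG1 above it, SST2 below it and AGA1 inside it. With quantile-normalized columns the calls over all features in set1∆ were 312 higher and 227 lower, against 456 and 148 with the values as deposited.

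**Figure D2:**
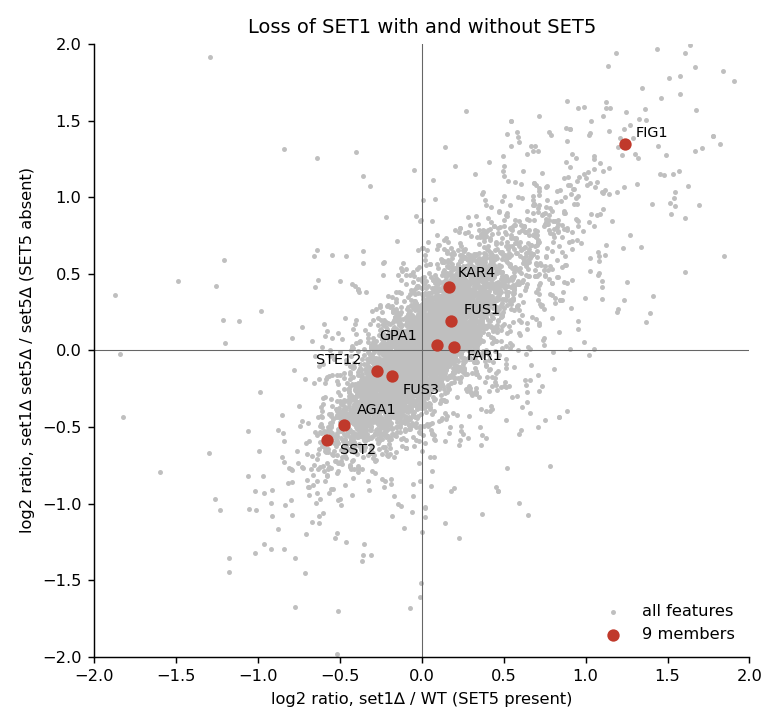
Log2 ratio of set1∆ to WT (horizontal) and of set1∆ set5∆ to set5∆ (vertical), on log2(FPKM + 1), for all features (grey) and the 9 members (red, named); 85 features lie beyond the axes. FIG1 lies at 1.24 and 1.35 and SST2 at -0.58 and -0.58, with the remaining members nearer the origin.

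Being high or low in both strains without SET1 was common among all genes. Of the 9 members, 2 (FIG1 and KAR4) lay higher in set1∆ and set1∆ set5∆ than in all 3 strains with SET1, and 2 (SST2 and AGA1) lay lower, while 31.3% of all features lay higher in that way and 31.4% lower. The size of the difference separates FIG1 and SST2 from most genes more than its direction does. Averaged over both backgrounds, the SET1 ratio of FIG1 (1.29) was the 94th highest of 6541, that of SST2 (-0.58) the 163rd lowest and that of AGA1 (-0.48) the 290th lowest. Scarce transcripts spread more widely, and among the 677 features whose mean lies within 3-fold of that of FIG1 the share at least as high as FIG1 was 7.53% in set1∆ against WT and 8.86% in set1∆ set5∆ against set5∆. Among the 3438 features within 3-fold of the mean of SST2, the share at least as low as SST2 was 1.80% in set1∆ against WT and 3.96% in set1∆ set5∆ against set5∆.

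The comparison of set5∆ with WT gave small ratios. KAR4 had the lowest log2 ratio at -0.27, then FUS1 at -0.21, GPA1 at -0.17, STE12 at -0.15, FUS3 at -0.13, SST2 at -0.11, FIG1 at -0.08 and FAR1 at -0.03, and AGA1 alone was higher, at 0.06. In all 8 of 9 lay below WT, beside 49.7% of all features. None of the 9 was called, where 2.69% of features were called higher and 1.21% lower. Of all features, 90% lay between -0.271 and 0.379, and KAR4 at -0.275 lay just below that range. The 9 genes are linked by a shared regulator and are not 9 separate observations of the strain, and a single set of wild-type values enters every ratio.

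The removal of SET5 from a strain without SET1, set1∆ set5∆ against set1∆, uses other columns than set5∆ against WT. GPA1 had the lowest ratio at -0.23, followed by FUS1 (-0.20), FAR1 (-0.20), SST2 (-0.12), FUS3 (-0.12), KAR4 (-0.02) and STE12 (-0.02), while FIG1 (0.03) and AGA1 (0.04) were slightly higher. In this comparison 7 of 9 lay below set1∆, beside 49.8% of all features, and none was called, where 1.02% were called higher and 0.841% lower. FUS1 had nearly equal ratios over the pair of SET5 comparisons, -0.21 and -0.20, as did SST2 at -0.11 and -0.12. The FPKM of FUS1 were 24.5 in set5∆ against 28.6 in WT and 28.1 in set1∆ set5∆ against 32.5 in set1∆. KAR4 stood at -0.27 where SET1 was present and -0.02 where it was absent. Its interaction, meaning the log2 ratio of set1∆ set5∆ to WT less those of both single deletions, was 0.25. That was the largest among the members, followed in size by FAR1 at -0.17, and 0 members were called in it, where 2.08% of all features were called higher and 3.10% lower. FIG1, SST2, AGA1, FUS1 and FUS3 had interactions of 0.11, -0.01, -0.01, 0.01 and 0.01 in log2.

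In SET5 Y402A against WT, FUS3 and STE12 had the lowest log2 ratios, -0.28 each, followed by KAR4 at -0.20, FUS1 at -0.19, AGA1 at -0.15, FAR1 at -0.12, GPA1 at -0.07 and SST2 at -0.06, and FIG1 alone was higher, at 0.21. Again 8 of 9 lay below WT, beside 51.3% of all features, and none was called, where 4.16% of features were called higher and 1.24% lower. Because set5∆ and SET5 Y402A are set against the same wild-type values, the low values in both are not independent of each other. Set directly against set5∆, SET5 Y402A had 5 of 9 members higher and 4 lower, from AGA1 at -0.20 to FIG1 at 0.29, and none was called beside 2.23% of features called higher and 0.841% lower. FUS1 was at 25.0 FPKM in SET5 Y402A and 24.5 FPKM in set5∆, a log2 ratio of 0.02, the closest of the 9 genes.

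The double deletion was also set against WT. FIG1 stood at a log2 ratio of 1.27 and SST2 at -0.70, and these were the only members called, 1 higher and 1 lower, where 8.21% of features were called higher and 2.92% lower. AGA1 followed at -0.43, FUS3 at -0.30, STE12 at -0.29, GPA1 at -0.13 and FUS1 at -0.02, FAR1 was at -0.00 and KAR4 at 0.14. The median over the 9 genes was -0.13, beside 0.01 over all features.

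**Figure D3:**
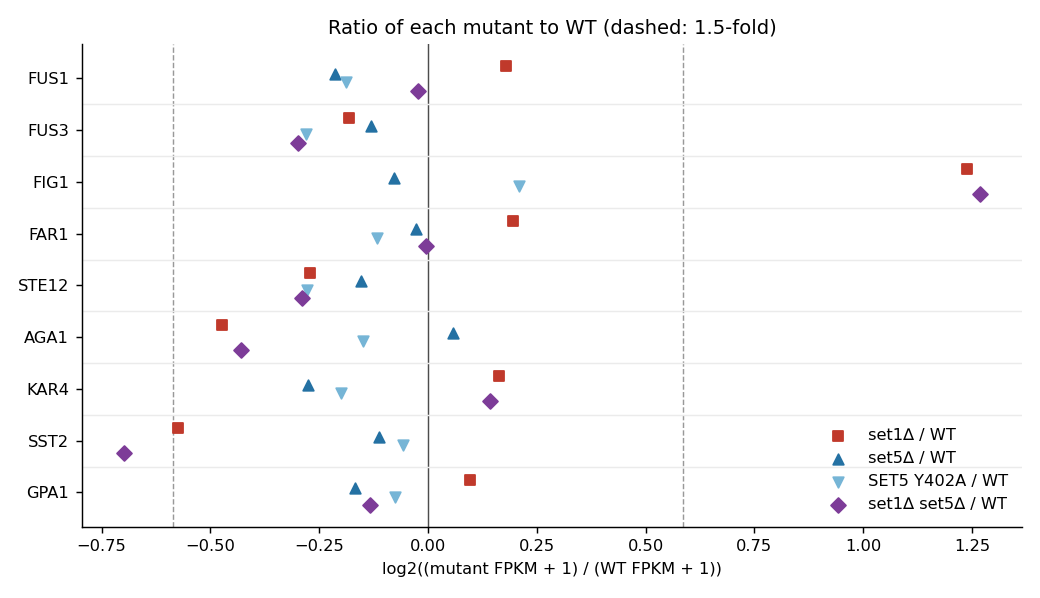
Log2 ratio of set1∆, set5∆, SET5 Y402A and set1∆ set5∆ to WT for each of the 9 genes, on log2(FPKM + 1); each point is a single ratio, all share the same WT values, and dashed lines mark 1.5-fold. FIG1 lies to the right (1.24 in set1∆, 1.27 in set1∆ set5∆), SST2 to the left (-0.58 and -0.70), and most points of set5∆ and SET5 Y402A lie between -0.28 and 0.

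The remaining genes of the pathway were 59 in 7 lists by role. Against WT, 3 of 59 were called higher in set1∆, beside 6.97% of all features, and 4 in set1∆ set5∆, beside 8.21%. In set5∆ 2 of 59 were called higher, beside 2.69% of all features, and in SET5 Y402A 2, beside 4.16%. None was called lower in these 4 comparisons, where 2.26% of all features were in set1∆, 2.92% in set1∆ set5∆, 1.21% in set5∆ and 1.24% in SET5 Y402A. These counts are near the background, and nothing particular to the pathway is read from them. Their median log2 ratios were 0.01 in set1∆, -0.01 in set1∆ set5∆, -0.02 in set5∆ and -0.04 in SET5 Y402A. The scaffold gene STE5 and the adaptor gene STE50 varied little, with ranges of 1.09-fold and 1.04-fold over the strains. Among the G protein subunits, the gamma subunit gene STE18 stood, like SST2, lower in both strains without SET1, with 140.6 FPKM in set1∆ and 134.8 FPKM in set1∆ set5∆, against 193 FPKM in set5∆, 204 FPKM in SET5 Y402A and 178 FPKM in WT. The beta subunit gene STE4 stood between 124 and 137 FPKM in all strains. Of the kinases, KSS1, the second MAP kinase, was lowest in set5∆ at a log2 ratio of -0.30 to WT, and STE11, the first kinase of the chain, stood at 0.26 in SET5 Y402A.

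Of the regulators that act on Ste12, the inhibitor gene DIG2 stood below WT in all 4 mutants, at 32.3 FPKM in set1∆, 30.7 FPKM in set5∆, 31.0 FPKM in SET5 Y402A and 29.6 FPKM in set1∆ set5∆, against 39.5 FPKM in WT. The partner gene TEC1, whose product directs Ste12 to filamentation genes, stood at 54.9 FPKM in set5∆ and 51.0 FPKM in SET5 Y402A, against 68.9 FPKM in WT. The other Ste12 inhibitor gene, DIG1, was between 89.9 and 102 FPKM. Among negative regulators, the phosphatase gene PTP2 was the exception, at 20.4 FPKM in set1∆ and 23.2 FPKM in set1∆ set5∆, against 11.9 FPKM in set5∆, 15.3 FPKM in SET5 Y402A and 12.7 FPKM in WT, which made it a called gene in both strains without SET1. PTP3, whose product also acts on Fus3, stood at a log2 ratio of -0.34 in SET5 Y402A. In the polarity list RGA2 (0.33) and BEM1 (0.26) had the largest ratios to WT, both in set1∆.

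The 21 fusion and mating targets had medians of 0.04 in set1∆, 0.07 in set1∆ set5∆, -0.01 in set5∆ and 0.00 in SET5 Y402A against WT. The cell fusion gene FUS2 resembled FIG1 in direction and in scarcity, with 5.35 FPKM in set1∆ and 5.10 FPKM in set1∆ set5∆, against 2.97 FPKM in set5∆, 3.38 FPKM in SET5 Y402A and 3.47 FPKM in WT, and it was called only in set1∆ set5∆ against set5∆ (0.62). PRR2, a protein kinase gene, was likewise higher at 4.51 and 4.99 FPKM in the strains set1∆ and set1∆ set5∆, against 2.77 FPKM in WT. PRM5, a pheromone-regulated membrane protein that is also a target of cell wall integrity signalling, was high in the SET5 mutants with SET1, at 75.3 FPKM in set5∆ and 90.7 FPKM in SET5 Y402A, while set1∆ had 42.1 FPKM and set1∆ set5∆ 47.5 FPKM, against 49.2 FPKM in WT. CHS1, a chitin synthase gene, stood at 94.0 FPKM in SET5 Y402A, against 54.7 FPKM in WT. PRM8 stood at 55.4 FPKM in set5∆ and 60.3 FPKM in SET5 Y402A, against 44.0 FPKM in WT, but only 63.5% of its 50-base sequences are unique in the genome. FUS1, the member most used to read the pathway, stood below WT in the very strains in which PRM5 and PRM8 stood above it.

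**Figure D4:**
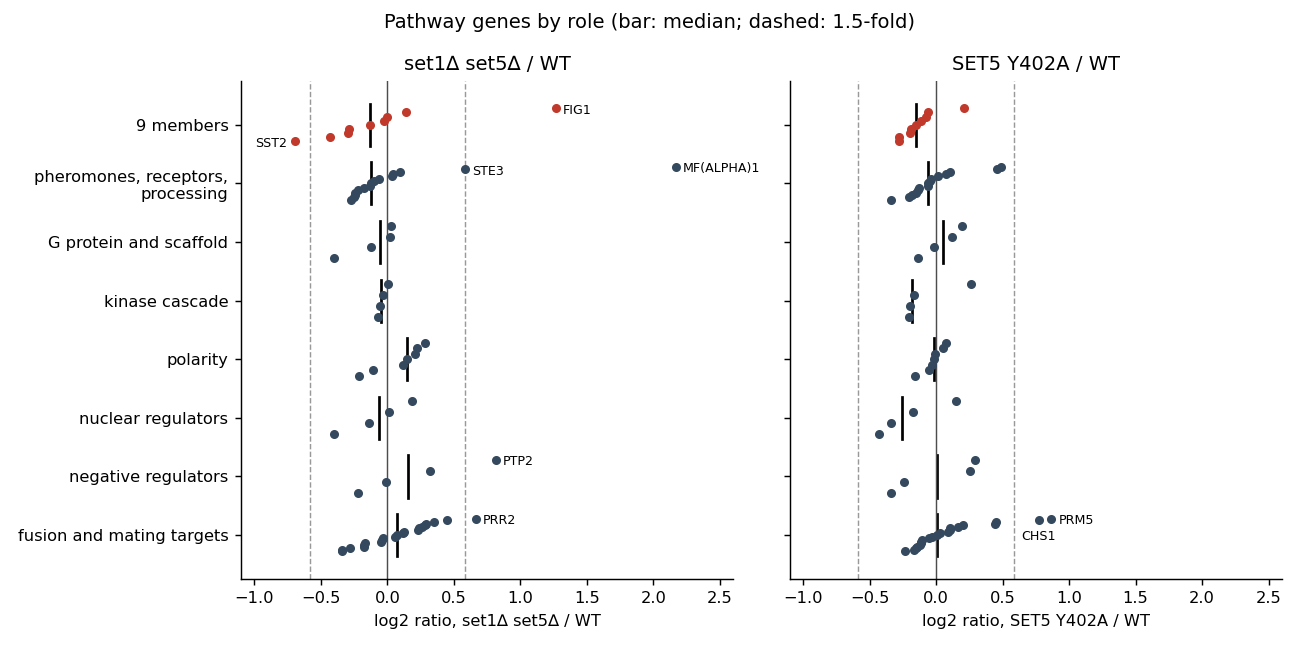
Log2 ratios to WT of the 9 members (red) and of 59 other pathway genes by role (dark), in set1∆ set5∆ (left) and SET5 Y402A (right), on log2(FPKM + 1); each point is a gene, bars are list medians, dashed lines mark 1.5-fold and genes beyond it are named. MF(ALPHA)1, STE3, PTP2 and PRR2 lie beyond the line on the left and PRM5 and CHS1 on the right, while the lists' medians lie between -0.26 and 0.16.

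Genes of the other mating type were examined because they could change what the pathway genes show. Of the 4 alpha-specific genes, 2 were high in the same strains as FIG1. The alpha-factor gene MF(ALPHA)1 stood at 6.71 FPKM in set1∆ and 8.83 FPKM in set1∆ set5∆, against 2.86 FPKM in set5∆, 2.06 FPKM in SET5 Y402A and 1.19 FPKM in WT, and STE3, the a-factor receptor gene, at 5.80 and 5.36 FPKM in set1∆ and set1∆ set5∆, against 1.99, 3.11 and 3.23 FPKM in set5∆, SET5 Y402A and WT. In MF(ALPHA)2 and SAG1, the other 2, strains with and without SET1 overlapped. MF(ALPHA)2 stood at 32.9 FPKM in set1∆ and 27.3 FPKM in set1∆ set5∆, against 29.8 FPKM in WT. SAG1 stood at 21.1 FPKM in set1∆ and 25.4 FPKM in set1∆ set5∆, against 21.4 FPKM in WT. The summed level of the 4 genes, most of it from MF(ALPHA)2 and SAG1, was 66.5 FPKM in set1∆ and 66.8 FPKM in set1∆ set5∆, against 53.3 FPKM in set5∆, 47.8 FPKM in SET5 Y402A and 55.7 FPKM in WT. Their activator alpha1 (HMLALPHA1, whose sequence is shared with the other alpha cassettes) stood at no more than 0.26 FPKM in any strain, and none of the 4 genes was at 0. Their part in the level of FIG1 was not tested. The 8 haploid-specific genes, GPA1 and FUS3 among them, had a median log2 ratio of -0.12 in set1∆ set5∆ against set1∆ and -0.21 in set1∆ set5∆ against WT, and all 8 lay below set1∆ in the first of these, beside 49.8% of all features. GPA1 and FUS3 are already among the 7 members counted as lower there.

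Early cell cycle genes were examined because AGA1, SST2, FAR1 and KAR4 are known to vary over the cell cycle. The 14 M/G1 genes summed to 3632 FPKM in set1∆ and 3825 FPKM in set1∆ set5∆, against 4545 FPKM in set5∆, 4174 FPKM in SET5 Y402A and 4058 FPKM in WT. As for AGA1 and SST2, both strains without SET1 lay below the other 3 in this sum. The order within these groups differed from that of SST2 in both. It differed from that of AGA1 only among the strains with SET1. Most of each sum came from CTS1, PIR1 and DSE2. CTS1 stood at 886 FPKM in set1∆ and 1124 FPKM in WT, DSE2 at 544 and 680 FPKM, and PIR1 at 850 and 883 FPKM. The list's median log2 ratio was -0.05 in set1∆ against WT, -0.03 in set1∆ set5∆ against WT and -0.17 in set1∆ set5∆ against set5∆, while it was 0.17 in set5∆ against WT and 0.12 in SET5 Y402A against WT. In set1∆ against WT 6 of the 14 genes were higher and 8 lower, from DSE1 at -0.41 to CLN3 at 0.95. CTS1 stood at -0.34 and DSE2 at -0.32 in that comparison, while SIC1 stood at 0.15, DSE4 at 0.13, and SCW11 and ASH1 at 0.07 each. AGA1 stood at -0.47 and SST2 at -0.58 there. DSE1, a daughter cell separation gene, had the lowest ratio of the list in set1∆ set5∆ against set5∆, at -0.77. The G1 cyclin gene CLN3 went the other way, at 63.6 FPKM in set1∆ and 80.0 FPKM in set1∆ set5∆, against 40.7 FPKM in set5∆, 44.4 FPKM in SET5 Y402A and 32.5 FPKM in WT. The part of cell cycle stage in the levels of AGA1 and SST2 was not tested.

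The features whose pattern over the 5 strains was most like that of a member were sought for FIG1 and SST2, the genes with at least 1.5-fold between strains, among the 5793 features that averaged 10 FPKM or more. The measure was the root mean square difference of log2(FPKM + 1) after centring each gene on its own mean. Nearest to SST2 were EEB1 (0.02), SPR6 (0.02) and YPR123C (0.03), and nearest to FIG1 were YLR108C (0.12), SOM1 (0.14) and HST4 (0.14). EEB1 stood at 19.0 FPKM in set1∆ and 17.2 FPKM in set1∆ set5∆, against 26.2 FPKM in set5∆, 27.6 FPKM in SET5 Y402A and 27.8 FPKM in WT. HST4, a histone deacetylase gene of the Sir2 family, stood at 18.4 FPKM in set1∆ and 18.7 FPKM in set1∆ set5∆, against 8.00 FPKM in set5∆, 8.47 FPKM in SET5 Y402A and 9.43 FPKM in WT. None of these 6 is a member or a gene of the other pathway lists. Within the members, AGA1 and SST2 were nearest to each other (0.13), and FIG1 was far from every other member, with KAR4 nearest at 0.46.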

How the data were processed

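RNA was measured in 5 strains with 2 replicates each, and the deposited table holds 1 FPKM column per strain. The header names no unit; FPKM was inferred from the values. The sources used here name neither the build and annotation nor the way replicates were combined and scaled by the authors. Per the submitters' processing notes, the tools were Cufflinks 2.0.2, Cuffdiff, TopHat2 2.0.5, R 2.15.1 and FastQC, with no role given. Libraries came from 8 µg of total RNA with the TruSeq RNA v2 kit, per the labels' protocols.

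Ratios were computed on log2(FPKM + 1) for 6541 of 6663 features, those averaging 1 FPKM or more, with Python 3.11.15, numpy 2.4.6 and pandas 2.3.3. The pseudocount understates ratios of scarce genes. There were 8 comparisons, and 1.5-fold was the limit for a call. The calculation was tested on simulated data. The table had 0 unused columns. Feature names were matched to RefSeq (R64), 5934 through the locus tag and 30 through the symbol, with 699 unmatched.

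The members and lists were chosen with earlier results of these data known. Named genes were all members and genes of other lists past 1.5-fold in any comparison. The 2 with the largest ratio to WT per list and the 3 most similar patterns were also named. Genes given for their small range, DIG1, and the named M/G1 genes other than CLN3 and DSE1 were picked with their values known. STE2, ASG7, MF(ALPHA)2 and SAG1 were named outside these rules as well. The comparison with features of similar level, the counts in either direction, the plain FPKM ratio and the wider promoter window were added after the data were seen.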

Additional observations from a re-analysis of the deposited data

How the results depend on the processing

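No paired analysis was possible because the table gives 1 value per strain, and no replicate could be left out for the same reason. With a pseudocount of 10 FPKM, or over features averaging 10 FPKM or more, the member called higher in set1∆ against WT, set1∆ set5∆ against WT and set1∆ set5∆ against set5∆ was lost (0 in place of 1); the gene is FIG1, whose mean of 3.13 FPKM is below both settings. SST2 sits at the limit: the count called lower in set1∆ set5∆ against set5∆ became 1 with a pseudocount of 0.1 FPKM or after median centring, and that in set1∆ set5∆ against WT became 0 at 2-fold. At a lower limit, 0.32 in log2, 2 members (SST2 and AGA1) were lower in each of these 3 comparisons. At that limit 2 members (FIG1 and KAR4) were higher in set1∆ set5∆ against set5∆. Of all 6541 features, 680 were lower by that limit in set1∆ against WT and 837 in set1∆ set5∆ against WT. In set1∆ set5∆ against set5∆ 988 were lower, and far more were higher than the 523 called at 1.5-fold. With only 9 genes, counts of 2 at the lower limit are not read as particular to the pheromone genes as a group. The log2 ratio of FIG1 in set1∆ against WT was 1.24 as reported, 1.62 with a pseudocount of 0.1, 0.39 with a pseudocount of 10, 0.79 after quantile normalization and 1.68 with plain FPKM. Of 360 recomputed member ratios 19 moved by at least 0.1, all of FIG1, and 0 of those past 1.5-fold changed sign; the largest shift of another member was 0.07. Quantile normalization gave 366 features higher and 282 lower in set1∆ set5∆ against WT (537 and 191 as deposited) and 386 and 323 against set5∆ (523 and 265). Depth is unknown and limits FIG1 most.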

Other observations

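Genes at the edges of the mating programme gave these values. In the filamentation list, which shares Ste12 with the pheromone response, FLO11, a flocculin gene, stood at 6.09 FPKM in set1∆ and 7.10 FPKM in set1∆ set5∆, against 4.09 FPKM in set5∆, 3.77 FPKM in SET5 Y402A and 3.18 FPKM in WT, and 72.0% of its 50-base sequences are unique. SVS1, a cell wall protein gene, stood at 273 FPKM in set1∆ and 292 FPKM in set1∆ set5∆, against 417 FPKM in set5∆, 371 FPKM in SET5 Y402A and 389 FPKM in WT, the same side as SST2 and AGA1. The list's median log2 ratio to WT was -0.03 in set1∆, 0.02 in set1∆ set5∆, -0.00 in set5∆ and -0.10 in SET5 Y402A. Among haploid-specific genes, RME1, a repressor of meiosis, stood at 83.4 FPKM in set5∆, 85.8 FPKM in SET5 Y402A, 67.6 FPKM in set1∆ and 58.8 FPKM in set1∆ set5∆, against 59.8 FPKM in WT, with an interaction of -0.67. HO, the mating-type switching endonuclease gene, which had the largest ratio to WT in size of that list apart from RME1, stood at -0.40 in set1∆ set5∆. Of the meiotic markers, NDT80 stood at 7.04 FPKM in set1∆ and 8.17 FPKM in set1∆ set5∆, against 13.4 FPKM in WT, and IME2 at 7.39 FPKM in SET5 Y402A, against 3.79 FPKM in WT. In the a-specific list the a-factor gene MFA1 (-0.31 in set1∆) and the agglutinin subunit gene AGA2 (-0.28 in set1∆ set5∆) had the largest ratios to WT in size.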
